A study of Homo sapiens with 6 samples.

Results

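The genes described here encode the enzymes of the tricarboxylic acid (TCA) cycle, the pyruvate dehydrogenase complex that feeds it, and the enzymes that refill or drain it. They were chosen by name, and all 32 were found among the 18806 genes of the deposited expression table. Poly(A)+ RNA had been sequenced from Mono-mac-6, a monocytic cell line of human acute myeloid leukemia in which the MLL-AF9 fusion gene is present. All 6 libraries came from a single Cas9-expressing clone infected with a lentiviral guide. The groups were sgDDX6.1 and sgDDX6.2, each with its own guide against DDX6, and sgNS with a control guide, at 2 libraries per group. Every group was kept under hygromycin B at 200 µg per ml together with blasticidin at 10 µg per ml. The design text gives this selection 1 to 2 weeks, but the labels put harvest at day 8 after infection, so the day of harvest is uncertain. All groups grew in medium with 1 mM sodium pyruvate and 2 mM glutamine, which are both fuels of the cycle.

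As background, the pyruvate carrier brings pyruvate into mitochondria, where pyruvate dehydrogenase turns it into acetyl-CoA. Citrate synthase joins acetyl-CoA to oxaloacetate, and the cycle then oxidizes the carbon back to oxaloacetate while it reduces carriers for the respiratory chain. Enzymes that refill the cycle with carbon are called anaplerotic, and those that withdraw its acids for synthesis are called cataplerotic. DDX6, the gene targeted here, encodes a DEAD-box RNA helicase of messenger RNA repression and decay. Levels are given in TPM, transcript abundance divided by transcript length and scaled to the same total in every library, so they can be compared between genes.

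DDX6 had 54.4 and 51.97 TPM in sgDDX6.1, 52.3 and 53.5 in sgDDX6.2 and 102 and 99.5 in sgNS. All 4 sgDDX6 libraries were below both sgNS libraries (log2 fold change -0.91, SE 0.04, adjusted p = 4.61e-09). How much DDX6 protein was left was not analysed here. Between 10794 and 11007 genes reached 1 TPM per library, and the depth is unknown. Libraries of the same group correlated at 0.998 across genes, and sgDDX6 with sgNS libraries at 0.969 to 0.975. The 84 ribosomal protein genes took 18.0 to 19.1% of all TPM in sgDDX6 libraries and 23.6% in both sgNS libraries, and because TPM are shares this bears on every gene described here. Of 12 myelomonocytic markers, CD14, ITGAM and CSF1R stayed under 5 TPM in every library, and LYZ led the rest. Their summed level was 14968 to 16174 TPM in sgDDX6 libraries and 10535 to 11015 in sgNS, of which LYZ gave 90.5 to 92.7%. By gene, 6 of the 12 rose (LYZ 0.56, CD33 0.18, CSF1R 1.13, CD68 0.56, SPI1 0.52 and CEBPA 0.41) and 6 fell (MPO -1.23, FCGR1A -0.59, HOXA9 -0.57, CD14 -0.49, ITGAM -0.34 and MEIS1 -0.21), so the list did not move one way. All 19 markers of T, B, erythroid, epithelial and fibroblast cells were under 5 TPM, 9 of them listed at 0 everywhere, and their sum was 2.97 to 6.02 TPM in sgDDX6 libraries and 5.66 to 5.70 in sgNS. The part of the ribosomal share and of the myelomonocytic markers in the results below was not tested. In bulk RNA, fewer cells with a transcript and less of it per cell cannot be told apart. Whether the 2 libraries in each group stem from independent cultures is not stated, so the p-values only reflect how far these libraries spread, possibly for technical reasons.

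With DDX6 targeted, transcripts of most enzymes of the cycle itself were slightly more abundant, while those of several enzymes around it were less abundant. All levels here are of RNA, and protein, activity or flux of these enzymes was not analysed. The gene furthest from no change was PCK2, the mitochondrial phosphoenolpyruvate carboxykinase (log2 fold change -2.82). ME1, the cytosolic malic enzyme, was the next lowest, and PC, pyruvate carboxylase, was the highest. Averaged over both guides, 20 of the 31 genes that could be tested rose, 8 fell and 3 were not called (adjusted p under 0.05). Among all 11151 genes tested, 33.8% were called higher and 32.9% lower, or 66.7% in either direction. The median log2 fold change was 0.18 for the 31 genes and 0.00 for all genes tested, while the median size of change was 0.23 for both. All fold changes were taken after adding 1 to each TPM, so they are too small for genes of low level. When TPM were rescaled without the ribosomal protein genes, an alternative added after the data were seen, 13 of the 31 were called higher and 9 lower, with a median of 0.09 against -0.09 for all genes.

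Most changes were small. Of the 28 genes called, 18 changed by less than 0.3 on the log2 scale, and apart from PCK2 and ME1 the 6 that fell lay between -0.25 and -0.13. The 20 that rose lay between 0.14 and 0.68. For 20 of the 32 genes all 4 sgDDX6 libraries were above both sgNS libraries, for 7 all were below, and for MPC1, PDHX, FH, D2HGDH and ME3 the libraries overlapped. Over all genes tested the libraries were fully separated upward in 31.5% and downward in 31.9%. Of the 31 genes, PCK2 and ME1 fell at least 2-fold, as did 267 of all genes tested (2.39%), with ME1 at that limit over both guides, at -0.91 with sgDDX6.1 and -1.09 with sgDDX6.2. None of the 31 rose as far, against 1.01% of all genes tested.

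**Figure D1:**
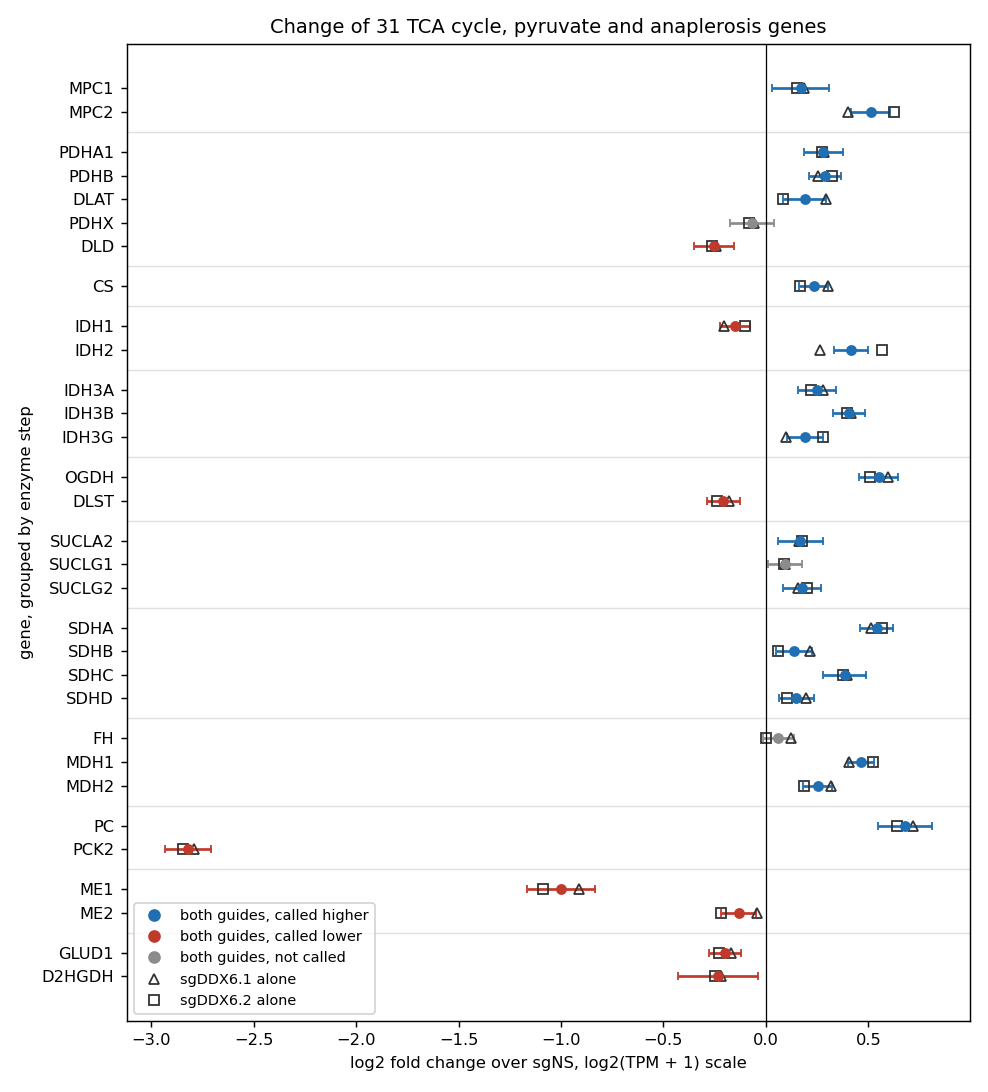
Log2 fold change over sgNS on the log2(TPM + 1) scale (horizontal axis) for the 31 genes tested (vertical axis, grouped by enzyme step). Filled circles are the mean of both guides with the 95% interval from limma, coloured by call, and open triangles and squares are sgDDX6.1 and sgDDX6.2 alone. Most cycle enzymes sit between 0 and 0.6, and PCK2 at -2.82 lies far from all others.

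**Figure D2:**
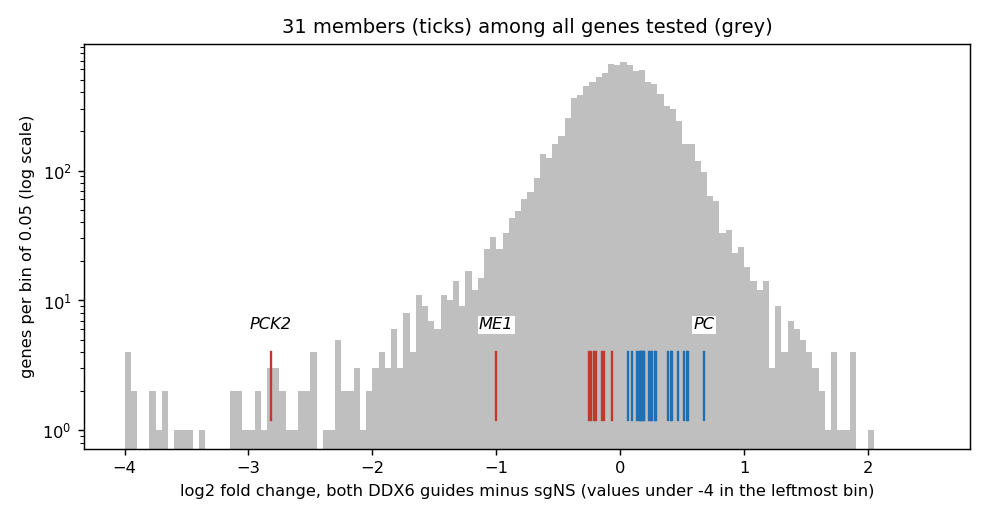
Distribution of the log2 fold change, both guides minus sgNS, for all 11151 genes tested (grey, log count axis), with the 31 genes as ticks, blue above 0 and red below 0. The leftmost bin also holds the genes beyond the axis. All ticks lie between -0.25 and 0.68 except PCK2 and ME1, far to the left.

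PCK2 makes phosphoenolpyruvate from mitochondrial oxaloacetate, a cataplerotic step that can feed serine and glycerol synthesis. The gene lies at chr14:24094053-24110598 on the plus strand (GRCh38, GENCODE release 29) and shares no exon bases with another annotated gene. It had 26.3 and 27.6 TPM in sgDDX6.1, 25.3 and 26.5 in sgDDX6.2 and 183 and 203 in sgNS. The 4 sgDDX6 libraries lay between 25.3 and 27.6 TPM, far below both sgNS libraries. Over both guides PCK2 fell by 2.82 on the log2 scale (SE 0.05, adjusted p = 1.61e-12, 95% interval -2.93 to -2.71), the 27th lowest value of 11151 genes. The guides alone gave -2.79 and -2.85, and their direct difference was -0.05 (95% interval -0.18 to 0.08, adjusted p = 0.513). In level, PCK2 was the 28th of the 32 genes in both sgDDX6 groups and the 7th in sgNS, next to IDH2. PCK1, the cytosolic isoform, was listed at 0 in every library.

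PC encodes pyruvate carboxylase, the main anaplerotic enzyme that makes oxaloacetate from pyruvate, and lies at chr11:66848233-66958376 on the minus strand. It had 21.5 and 21.4 TPM in sgDDX6.1, 19.7 and 20.9 in sgDDX6.2 and 11.97 and 13.4 in sgNS. No sgDDX6 library was under 19.7 TPM and no sgNS library over 13.4. PC rose by 0.68 (SE 0.06, adjusted p = 1.52e-06), the 393rd highest value of 11151. Because PC rose and PCK2 fell, the ratio of their TPM was 0.818 and 0.775 in sgDDX6.1, 0.778 and 0.788 in sgDDX6.2, and 0.0654 and 0.0661 in sgNS. PC thus came close to the level of PCK2 in sgDDX6 libraries, whereas in sgNS libraries PCK2 was far more abundant. Of PC exon bases, 10.5% overlap LRFN4 on the other strand, and whether strand was used in counting is unknown here.

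**Figure D3:**
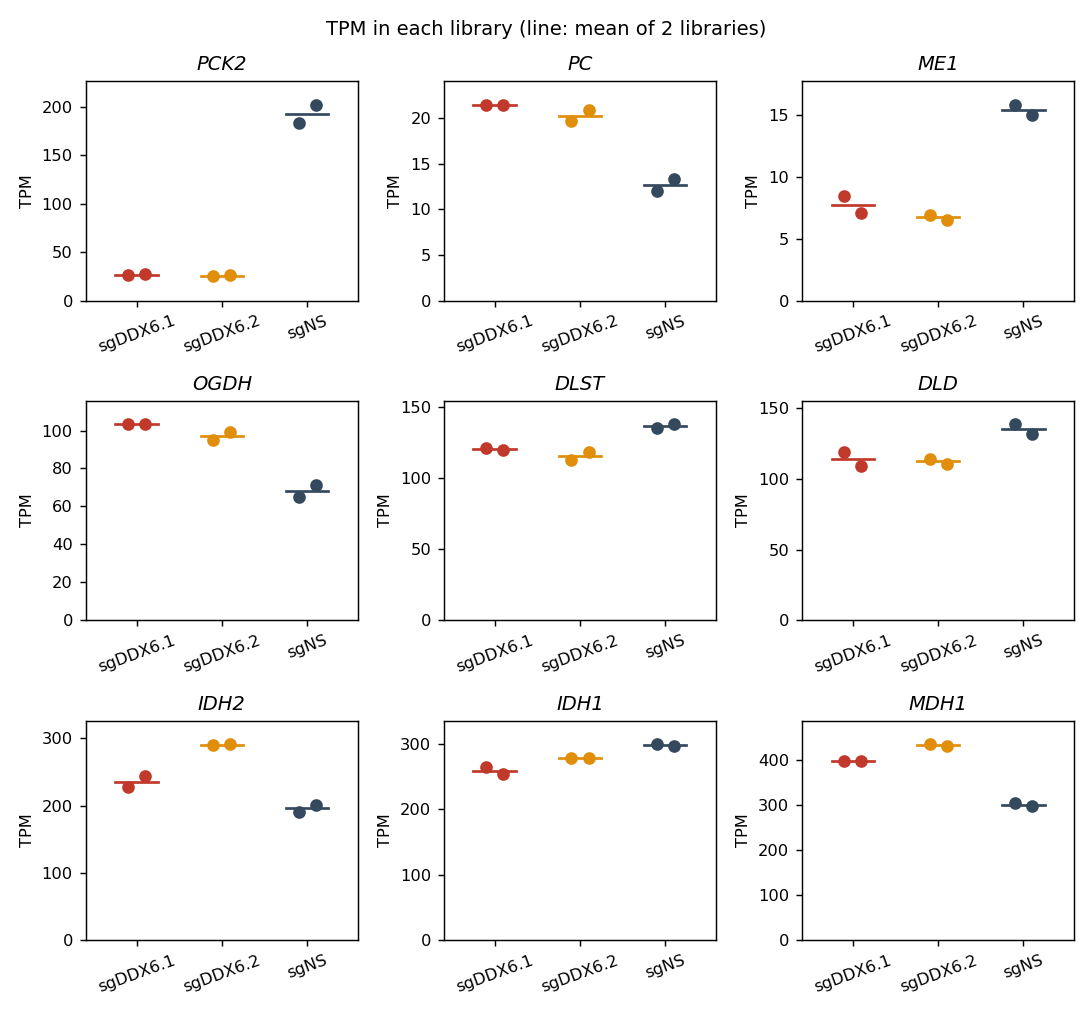
TPM in each library (vertical axes, each from 0) for 9 genes in sgDDX6.1, sgDDX6.2 and sgNS (horizontal axes), with points for libraries and a line for the mean of 2. PCK2 and ME1 are lower in sgDDX6 libraries, PC, OGDH and MDH1 are higher, and IDH2 separates all 3 groups.

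Transcripts of the malic enzymes, which turn malate into pyruvate, were lower. ME1, the cytosolic NADP-dependent form at chr6:83210389-83431071 on the minus strand, had 8.43 and 7.10 TPM in sgDDX6.1, 6.95 and 6.50 in sgDDX6.2 and 15.9 and 15.02 in sgNS. The groups did not overlap, and ME1 fell by 1.00 (SE 0.08, adjusted p = 3.79e-07). ME2, the mitochondrial NAD-dependent form, had 78.1 and 75.9 TPM in sgDDX6.1, 67.4 and 68.7 in sgDDX6.2 and 80.4 and 78.4 in sgNS. It fell by 0.13 (SE 0.04, adjusted p = 0.0107), a call lost without sgNS replicate 1 (adjusted p = 0.0902). With sgDDX6.1 alone ME2 was not called (-0.04, adjusted p = 0.418), and with sgDDX6.2 it fell by 0.22 (adjusted p = 0.00119). Rescaled without the ribosomal protein genes, ME2 was called with sgDDX6.1 as well. ME1 made up 9.74 and 8.55% of the TPM of both enzymes in sgDDX6.1, 9.35 and 8.65% in sgDDX6.2, and 16.5 and 16.1% in sgNS. ME3, the mitochondrial NADP-dependent form, had 0 to 0.06 TPM in all libraries and was not tested.

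Glutamate and 2-hydroxyglutarate feed the cycle at 2-oxoglutarate. GLUD1, the mitochondrial glutamate dehydrogenase, had 145 and 140.3 TPM in sgDDX6.1, 135 and 139 in sgDDX6.2 and 162 and 159 in sgNS. All sgDDX6 libraries were below both sgNS libraries, and GLUD1 fell by 0.20 (SE 0.04, adjusted p = 0.000437). GLUD1 has 5 named pseudogenes and a near-identical expressed copy, GLUD2, at 6.44 to 8.44 TPM in sgDDX6 and 7.49 to 8.84 TPM in sgNS libraries, which makes its value less certain. SHLD2, listed as FAM35A, overlaps 13.2% of GLUD1 exon bases on the other strand and had 58.7 to 71.2 TPM in sgDDX6 libraries and 52.6 to 53.8 in sgNS. D2HGDH, which oxidizes D-2-hydroxyglutarate to 2-oxoglutarate, had 12.6 and 13 TPM in sgDDX6.1, 11.6 and 13.4 in sgDDX6.2 and 13.4 and 16.9 in sgNS. Its groups overlapped. The fall of 0.23 (SE 0.09, adjusted p = 0.0344) rested on sgNS replicate 2, without which it was -0.08 (adjusted p = 0.496), and the call was also lost without either sgDDX6.1 library (adjusted p = 0.0993 and 0.0759) or without sgDDX6.2 replicate 1 (adjusted p = 0.0912). It was lost as well after quantile normalization (adjusted p = 0.0923), with no filter (adjusted p = 0.135) and without the variance trend (adjusted p = 0.0693).

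At the entry of pyruvate, both genes of the mitochondrial pyruvate carrier rose over both guides. MPC2 had 41.1 and 41.02 TPM in sgDDX6.1, 48.3 and 48.03 in sgDDX6.2 and 30.9 and 30.97 in sgNS, with no overlap between the 3 groups. It rose by 0.51 (SE 0.04, adjusted p = 9.63e-07), by 0.40 with sgDDX6.1 and 0.62 with sgDDX6.2. Of MPC2 exon bases 22.5% overlap DCAF6 on the other strand, and DCAF6 had 42.3 to 47.5 TPM in sgDDX6 libraries and 34.3 to 35.1 in sgNS. MPC1, the partner of MPC2, had 94.4 and 90.6 TPM in sgDDX6.1, 95.1 and 86.02 in sgDDX6.2 and 88.5 and 74.5 in sgNS. The libraries overlapped, and the rise of 0.17 (SE 0.06, adjusted p = 0.0341) was lost without sgNS replicate 2 (0.05, adjusted p = 0.518). It was also lost without either sgDDX6.1 library (adjusted p = 0.114 and 0.0686) and without sgDDX6.2 replicate 1 (adjusted p = 0.0932), after quantile normalization (adjusted p = 0.0899), with no filter on low values (adjusted p = 0.137) and without the variance trend (adjusted p = 0.0965). MPC1 was not called with sgDDX6.2 alone (0.15, adjusted p = 0.0869).

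Subunits of the pyruvate dehydrogenase complex did not move together. The E1 subunits, which decarboxylate pyruvate, both rose. PDHA1 had 57.3 and 58.5 TPM in sgDDX6.1, 56.4 and 58.8 in sgDDX6.2 and 46.2 and 48.6 in sgNS, a rise of 0.28 (SE 0.04, adjusted p = 0.000152). PDHB had 127 and 129.6 TPM in sgDDX6.1, 136 and 133 in sgDDX6.2 and 109 and 106 in sgNS, a rise of 0.29 (SE 0.04, adjusted p = 2.53e-05). In both the sgDDX6 libraries stood clear above sgNS. PDHA1 shares 21.3% of its exon bases with MAP3K15 on the other strand, which was under 1 TPM in every library. DLAT, the E2 acetyltransferase, had 86.1 and 78.5 TPM in sgDDX6.1, 71.6 and 69.96 in sgDDX6.2 and 69.02 and 64.6 in sgNS. It rose by 0.19 over both guides (SE 0.05, adjusted p = 0.0044), by 0.30 with sgDDX6.1, and was not called with sgDDX6.2 (0.08, adjusted p = 0.211). DLAT lost its call over both guides without sgNS replicate 2 (adjusted p = 0.0515). PDHX, the protein that anchors E3 to the complex, was not called (-0.07, 95% interval -0.18 to 0.04, adjusted p = 0.236), with 53.7 and 50.8 TPM in sgDDX6.1, 52.6 and 50.1 in sgDDX6.2 and 56.5 and 52.3 in sgNS.

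DLD is the E3 dihydrolipoamide dehydrogenase that pyruvate dehydrogenase shares with the 2-oxoglutarate dehydrogenase complex. It had 119 and 109 TPM in sgDDX6.1, 114 and 111 in sgDDX6.2 and 138 and 131 in sgNS. DLD fell by 0.25 (SE 0.04, adjusted p = 0.000347), and all 4 sgDDX6 libraries were below both sgNS libraries. The 5 genes of the complex therefore ranged from -0.25 for DLD to 0.29 for PDHB, and their summed TPM was 435 ± 11.9 in sgDDX6.1, 427 ± 5.78 in sgDDX6.2 and 411 ± 11.4 in sgNS (SD, n = 2 each). Rescaled without the ribosomal protein genes, the difference of this sum was -1.78% in place of 4.78%, and the libraries overlapped.

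The transcript of citrate synthase, the entry of acetyl-CoA into the cycle, was higher. CS had 286 and 279 TPM in sgDDX6.1, 255 and 258 in sgDDX6.2 and 226 and 231 in sgNS, a rise of 0.23 (SE 0.03, adjusted p = 5.08e-05). It rose by 0.30 with sgDDX6.1 and by 0.16 with sgDDX6.2 (adjusted p = 0.00214), and the second call was lost without the ribosomal protein genes (0.07, adjusted p = 0.102). A later step, from isocitrate to 2-oxoglutarate, has an NAD-dependent enzyme of the cycle, IDH3, and NADP-dependent enzymes in the cytosol (IDH1) and mitochondria (IDH2). All 3 IDH3 genes rose. The subunit IDH3B had 188 and 192 TPM in sgDDX6.1, 192 and 184 in sgDDX6.2 and 139.8 and 145 in sgNS and rose by 0.41 (SE 0.04, adjusted p = 1.37e-06). The catalytic IDH3A had 88.8 and 82.8 TPM in sgDDX6.1, 82.98 and 81.3 in sgDDX6.2 and 70.7 and 70.3 in sgNS and rose by 0.25 (SE 0.04, adjusted p = 0.00025). In both genes the sgDDX6 libraries stood clear above sgNS. IDH3G, a regulatory subunit, had 124 and 129.8 TPM in sgDDX6.1, 140.3 and 147 in sgDDX6.2 and 115 and 121 in sgNS, a rise of 0.19 (SE 0.04, adjusted p = 0.00137). It was called with sgDDX6.2 (0.28, adjusted p = 0.000263) and not with sgDDX6.1 (0.10, adjusted p = 0.0813). IDH3B took 47.0 and 47.4% of the TPM of the 3 genes in sgDDX6.1, 46.2 and 44.6% in sgDDX6.2, and 42.9 and 43.1% in sgNS. IDH3A shares 38.2% of its exon bases with ACSBG1 on the other strand, which was at most 0.17 TPM in any library. Of IDH3G exon bases, 10.2% overlap SSR4 on the other strand.

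IDH1 and IDH2 moved in opposite directions. IDH2 (chr15:90083045-90102504, minus strand) had 228 and 244 TPM in sgDDX6.1, 289.7 and 291 in sgDDX6.2 and 191 and 200.4 in sgNS. Its 3 groups did not overlap, with sgDDX6.2 highest, and it rose by 0.42 (SE 0.04, adjusted p = 1.63e-06). IDH1 (chr2:208236227-208266074, minus strand) had 265 and 253 TPM in sgDDX6.1, 278 and 278 in sgDDX6.2 and 299 and 297 in sgNS. All sgDDX6 libraries were below sgNS, and IDH1 fell by 0.15 (SE 0.03, adjusted p = 0.00152). The ratio of IDH2 to IDH1 was 0.861 and 0.962 in sgDDX6.1, 1.04 and 1.05 in sgDDX6.2, and 0.639 and 0.675 in sgNS. In level IDH2 stood 6th of the 32 genes in sgDDX6.1, 2nd in sgDDX6.2 and 6th in sgNS. The summed TPM of the pair overlapped between sgDDX6 and sgNS libraries, with means of 495, 568 and 494 in sgDDX6.1, sgDDX6.2 and sgNS.

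In the 2-oxoglutarate dehydrogenase complex the E1 gene rose, whereas the E2 gene and the shared DLD fell. OGDH, the E1 that decarboxylates 2-oxoglutarate (chr7:44606572-44709066, plus strand), had 103 and 103 TPM in sgDDX6.1, 95.2 and 98.96 in sgDDX6.2 and 65.1 and 71.1 in sgNS. It rose by 0.55 (SE 0.04, adjusted p = 6.37e-07), and the lowest sgDDX6 library was well above the highest sgNS library. DLST, the E2 succinyltransferase, had 121 and 119.6 TPM in sgDDX6.1, 113 and 118 in sgDDX6.2 and 135 and 138 in sgNS, and fell by 0.21 (SE 0.04, adjusted p = 0.000361), also with no overlap. The ratio of OGDH to DLST was 0.852 and 0.863 in sgDDX6.1, 0.844 and 0.839 in sgDDX6.2, and 0.482 and 0.517 in sgNS. DLST over DLD, by contrast, was 0.991 to 1.10 in sgDDX6 libraries and 0.976 to 1.05 in sgNS libraries, which overlap.

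**Figure D4:**
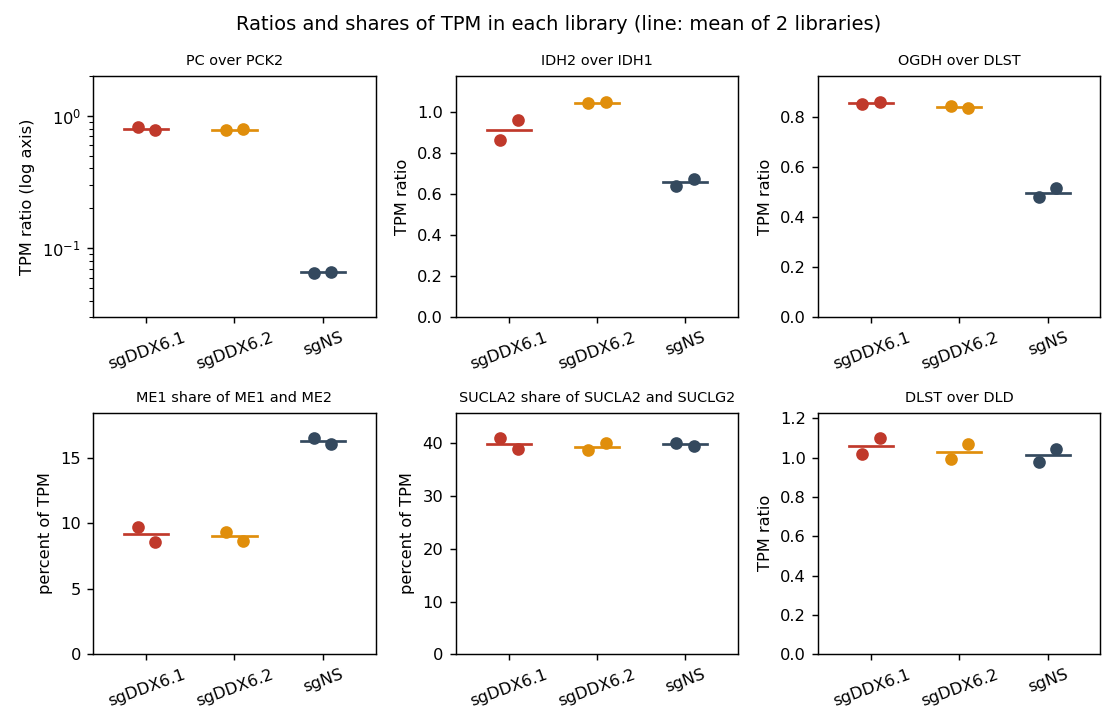
Ratios or shares of TPM in each library (vertical axes, the PC over PCK2 panel on a log axis) for sgDDX6.1, sgDDX6.2 and sgNS, with points for libraries and a line for the mean of 2. PC over PCK2, IDH2 over IDH1 and OGDH over DLST are higher in all sgDDX6 libraries and the ME1 share is lower, while the SUCLA2 share and DLST over DLD overlap.

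Transcripts of succinyl-CoA ligase and succinate dehydrogenase were higher in part or in full. The ligase makes succinate and a nucleoside triphosphate, with SUCLG1 as the shared subunit and SUCLA2 or SUCLG2 setting whether ADP or GDP is used. SUCLG2 had 64.7 and 65.9 TPM in sgDDX6.1, 68.9 and 65.8 in sgDDX6.2 and 59.7 and 57.3 in sgNS, a rise of 0.18 (SE 0.04, adjusted p = 0.00287). SUCLA2 had 44.8 and 41.98 TPM in sgDDX6.1, 43.6 and 43.96 in sgDDX6.2 and 40.1 and 37.3 in sgNS and rose by 0.17 (SE 0.05, adjusted p = 0.00979), a call lost without sgNS replicate 2 (adjusted p = 0.121). In each gene all sgDDX6 libraries were above both sgNS libraries. SUCLG1 had 106 and 105 TPM in sgDDX6.1, 107 and 104 in sgDDX6.2 and 101 and 96.5 in sgNS, without overlap but just short of a call (0.09, 95% interval 0.01 to 0.18, adjusted p = 0.0511). The share of SUCLA2 in the TPM of SUCLA2 and SUCLG2 was 38.8 to 40.9% in sgDDX6 libraries and 39.5 to 40.1% in sgNS libraries, which overlap.

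All 4 subunits of succinate dehydrogenase, the cycle enzyme that is also complex II of the respiratory chain, rose over both guides, by unequal amounts, but SDHB (0.06, adjusted p = 0.296) and SDHD (0.10, adjusted p = 0.0646) were not called with sgDDX6.2 alone. SDHA, the flavoprotein that oxidizes succinate (chr5:218241-256700, plus strand), had 137 and 140.2 TPM in sgDDX6.1, 142 and 145 in sgDDX6.2 and 94.7 and 98.4 in sgNS. It rose by 0.54 (SE 0.04, adjusted p = 1.62e-07). SDHC, a membrane anchor, had 88.7 and 94.97 TPM in sgDDX6.1, 87.4 and 93.7 in sgDDX6.2 and 71.8 and 67.4 in sgNS and rose by 0.38 (SE 0.05, adjusted p = 2.26e-05). The iron-sulfur subunit SDHB had 153 and 165 TPM in sgDDX6.1, 144 and 139.8 in sgDDX6.2 and 139 and 134 in sgNS, a smaller rise of 0.14 (SE 0.04, adjusted p = 0.00972), and its sgDDX6.2 libraries lay just above sgNS. The second anchor, SDHD, had 298 and 277 TPM in sgDDX6.1, 271 and 269 in sgDDX6.2 and 259 and 244 in sgNS, a rise of 0.15 (SE 0.04, adjusted p = 0.00586). Without sgNS replicate 2, SDHB (adjusted p = 0.0746) and SDHD (adjusted p = 0.0780) were no longer called, and SDHB also lost its call after quantile normalization (adjusted p = 0.116). SDHA over SDHB was 0.892 and 0.851 in sgDDX6.1, 0.985 and 1.04 in sgDDX6.2, and 0.683 and 0.733 in sgNS. SDHC has 4 named pseudogenes and SDHA and SDHD have 3 each, so their values are less certain, as are those of SUCLA2 (3), SUCLG2 (2), DLST, FH, ME2 and PDHA1 (1 each). Of SDHD exon bases, 11.2% overlap another annotated gene on the same strand.

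From fumarate to oxaloacetate, fumarase was not called and both malate dehydrogenases rose. FH had 181 and 179 TPM in sgDDX6.1, 163 and 168 in sgDDX6.2 and 165 and 166 in sgNS, with overlap (0.06, 95% interval -0.01 to 0.14, adjusted p = 0.13). It rose by 0.12 with sgDDX6.1 (adjusted p = 0.0173), a call lost without either sgNS library (adjusted p = 0.0773 and 0.0511), and was 0.000339 with sgDDX6.2 (adjusted p = 0.995). MDH1, the cytosolic enzyme of the malate-aspartate shuttle (chr2:63588609-63607197, plus strand), had 399 and 399 TPM in sgDDX6.1, 436 and 431 in sgDDX6.2 and 304 and 298 in sgNS. It was the most abundant of the 32 genes in every group and rose by 0.46 (SE 0.03, adjusted p = 1.03e-07). MDH2, the enzyme of the cycle, had 249 and 254 TPM in sgDDX6.1, 229 and 229.8 in sgDDX6.2 and 200.3 and 202 in sgNS, and rose by 0.25 (SE 0.03, adjusted p = 2.59e-05). In neither gene did sgDDX6 and sgNS libraries overlap. MDH1 over MDH2 was 1.61 and 1.57 in sgDDX6.1, 1.91 and 1.87 in sgDDX6.2, and 1.52 and 1.48 in sgNS.

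Summed over 16 genes of the mitochondrial cycle enzymes, none of them an aconitase, TPM were 2345 ± 10.6 in sgDDX6.1, 2251 ± 6.72 in sgDDX6.2 and 2015 ± 7.33 in sgNS (SD, n = 2 each), 14.0% more with DDX6 targeted. Rescaled without the ribosomal protein genes, the difference was 6.89%. The sum over all 32 genes was 3982 ± 20.3 in sgDDX6.1, 3977 ± 0.184 in sgDDX6.2 and 3675 ± 10.2 in sgNS, or 0.398%, 0.398% and 0.367% of all TPM. The difference was 8.28%, or 1.5% when rescaled without the ribosomal protein genes. Without PCK2 it was 13.5%, and 6.41% after that rescaling. By step, the sums of succinate dehydrogenase (19.4%), IDH3 (23.3%) and the fumarase and malate dehydrogenase genes (24.2%) were higher, and those of the malic enzymes (15.9%) and of GLUD1 with D2HGDH (13.2%) lower, with all sgDDX6 libraries on 1 side of sgNS. After the rescaling the first 3 were higher by 11.9%, 15.6% and 16.4% and the last 2 lower by 21.2% and 18.6%. The sum with fumarase includes the cytosolic MDH1, with means of 399, 433 and 301 TPM in sgDDX6.1, sgDDX6.2 and sgNS. In the same order MDH2 had 251, 229 and 201 and FH 180, 165 and 165. The sum of succinyl-CoA ligase was 9.84% higher, but 2.96% with overlapping libraries after the rescaling. That of OGDH with DLST was 6.63% higher, with overlap before the rescaling too. These sums carry no test.

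To show the sequence at the start of the gene that changed most, beside starts that share a motif yet moved in different directions, 5 promoter windows from RefSeq (GRCh38.p14) are printed. Each runs from 250 bases before to 50 after the RefSeq start, 5′ to 3′ on the strand of the gene. They are PCK2 at chr14:24094061-24094360 (plus), DLST at chr14:74881666-74881965 (plus), IDH3B at chr20:2664167-2664466 (minus), MDH2 at chr7:76047856-76048155 (plus) and SDHD at chr11:112086623-112086922 (plus). GENCODE places the PCK2 gene start before this window. Capitals mark CCGGAAGT, bound by ETS factors such as GABPA, or its reverse complement ACTTCCGG, and in SDHD also, in order, the NRF1 motif before it and TGACCTTGA, the reverse complement of the ERR motif TCAAGGTCA, after it.
PCK2: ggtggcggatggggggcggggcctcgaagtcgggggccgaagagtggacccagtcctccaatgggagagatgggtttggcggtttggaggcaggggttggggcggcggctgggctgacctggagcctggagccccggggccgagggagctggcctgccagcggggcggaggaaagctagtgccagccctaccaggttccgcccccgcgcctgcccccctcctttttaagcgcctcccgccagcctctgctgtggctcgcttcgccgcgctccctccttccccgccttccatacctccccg
DLST: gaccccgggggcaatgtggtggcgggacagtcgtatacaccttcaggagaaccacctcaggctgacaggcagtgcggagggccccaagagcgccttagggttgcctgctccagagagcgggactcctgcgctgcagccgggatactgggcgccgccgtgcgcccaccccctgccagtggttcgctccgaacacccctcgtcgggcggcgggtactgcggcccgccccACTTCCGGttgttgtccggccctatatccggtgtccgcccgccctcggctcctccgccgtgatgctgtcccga
IDH3B: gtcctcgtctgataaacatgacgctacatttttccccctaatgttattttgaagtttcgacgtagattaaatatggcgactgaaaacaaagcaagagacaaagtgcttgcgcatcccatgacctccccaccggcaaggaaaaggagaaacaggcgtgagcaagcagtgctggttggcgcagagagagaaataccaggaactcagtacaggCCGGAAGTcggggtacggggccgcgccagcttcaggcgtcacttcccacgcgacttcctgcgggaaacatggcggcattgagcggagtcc
MDH2: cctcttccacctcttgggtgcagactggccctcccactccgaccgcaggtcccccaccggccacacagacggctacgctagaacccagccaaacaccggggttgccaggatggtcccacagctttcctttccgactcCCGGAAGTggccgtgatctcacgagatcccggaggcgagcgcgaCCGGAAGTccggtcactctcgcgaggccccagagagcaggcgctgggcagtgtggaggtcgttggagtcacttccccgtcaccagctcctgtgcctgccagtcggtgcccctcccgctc
SDHD: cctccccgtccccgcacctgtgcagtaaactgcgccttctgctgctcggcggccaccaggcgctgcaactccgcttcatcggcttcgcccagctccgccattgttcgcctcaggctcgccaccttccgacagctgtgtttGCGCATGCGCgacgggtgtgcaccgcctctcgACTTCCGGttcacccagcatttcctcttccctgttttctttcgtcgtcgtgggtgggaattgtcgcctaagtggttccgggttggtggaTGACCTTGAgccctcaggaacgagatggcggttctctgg

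Of the 32 genes, 30 had such a window, and OGDH and SDHC did not. Both strands were searched for 4 motifs, and no 2 matches overlapped apart from the NRF1 motif, which reads the same on both strands. CCGGAAGT was found in 4 of the 30 genes (13.3%), against 10.7% of 8717 tested genes with a window and 4.95% of all 27305 genes with a window. It starts 23 bases before the RefSeq start in DLST, 40 in IDH3B, 113 and 69 in MDH2 and 78 in SDHD. Of these genes IDH3B, MDH2 and SDHD rose and DLST fell. The NRF1 motif and TCAAGGTCA were each found in SDHD alone (3.33%, against 2.82% and 0.229% of tested genes). TGATGNAA, the core of the C/EBP-ATF response element, was found in 0 of the 30 windows, PCK2 included, against 2.63% of tested genes. A match is a description of the letters and not a binding site.

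Each guide was also set against sgNS alone. With sgDDX6.1, 20 of the 31 genes rose and 6 fell (31.8% and 29.7% of all genes tested, 61.6% either way), with a median of 0.19 against 0.01. With sgDDX6.2, 16 rose and 8 fell (31.5% and 32.7%, 64.2% either way), with a median of 0.16 against -0.01. Both guides are set against the same sgNS libraries. The guides were also compared directly, and 4 of the 31 genes were higher and 6 lower with sgDDX6.2 (17.0% and 18.6% of all genes tested, 35.6% either way), so the share called was near that of all genes. Among the higher were IDH2 (0.30, SE 0.04, adjusted p = 0.000422), MPC2 (0.22), IDH3G (0.18) and MDH1 (0.12). Among the lower were DLAT (-0.21), ME2 (-0.18), SDHB (-0.16), CS (-0.14), MDH2 (-0.13) and FH (-0.12). Both sgDDX6.2 libraries lay above both sgDDX6.1 libraries for 7 of the 32 genes and below them for 12, against 30.7% and 38.5% of all genes tested. IDH2 kept its call in every alternative run, and the other 9 each lost theirs in at least 1. Without sgDDX6.2 replicate 2 the counts were 2 higher and 0 lower, without sgDDX6.2 replicate 1 they were 2 and 1, and without sgDDX6.1 replicate 1 they were 3 and 2.

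Genes that neighbour these enzymes in the pathway were taken from lists by pathway step, and of 44 tested (51 listed) 18 rose and 13 fell, with a median of 0.03. Over all genes tested 33.8% were called higher and 32.9% lower, 66.7% either way, with a median of 0.00. The share of neighbours called was near this, and the same shares stand beside each smaller list below. ACO1, the cytosolic aconitase that turns citrate into isocitrate, had 33.6 and 31.98 TPM in sgDDX6.1, 37.5 and 38.95 in sgDDX6.2 and 25.3 and 23.8 in sgNS, a rise of 0.51 (SE 0.05, adjusted p = 3.41e-06). Among 7 tested genes of glutamine, glutamate and aspartate entry, 4 fell and 1 rose. GPT2, the mitochondrial alanine transaminase that makes 2-oxoglutarate, had 6.50 and 7.09 TPM in sgDDX6.1, 6.31 and 6.14 in sgDDX6.2 and 63.7 and 65.02 in sgNS. It fell by 3.12 (SE 0.06, adjusted p = 2.26e-12), further than PCK2, with no overlap. GOT1, the cytosolic aspartate transaminase, fell by 1.62 (SE 0.05, adjusted p = 2.37e-10), and the glutamine transporter SLC1A5 by 0.76 (SE 0.04, adjusted p = 7.92e-09). The gene that rose was SLC25A22, a mitochondrial glutamate carrier (0.22, SE 0.06, adjusted p = 0.00485), a call lost without the ribosomal protein genes (adjusted p = 0.0595). Of 3 tested genes of other 2-oxoglutarate enzymes, DHTKD1, the 2-oxoadipate dehydrogenase, rose (0.19, SE 0.05, adjusted p = 0.00775), as did MRPS36 (0.16, SE 0.06, adjusted p = 0.0301). OGDHL fell over both guides (-0.21, SE 0.07, adjusted p = 0.0253), but its libraries overlapped. It fell with sgDDX6.1 (-0.48, adjusted p = 0.000421) and was not called with sgDDX6.2 (0.06, adjusted p = 0.517). The MRPS36 libraries also overlapped, and it was not called with sgDDX6.2 alone (0.10, adjusted p = 0.201). All 3 lost their calls without sgNS replicate 2 (adjusted p = 0.0942, 0.266 and 0.261). MRPS36 and OGDHL lost them without sgDDX6.2 replicate 1 (adjusted p = 0.103 and 0.0736), and MRPS36 without sgDDX6.1 replicate 2 (adjusted p = 0.0797).

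Of 6 genes of citrate and malate export and shuttles, 4 rose and 1 fell. SLC25A10, the dicarboxylate carrier, had 71.7 and 73.9 TPM in sgDDX6.1, 56.7 and 58.9 in sgDDX6.2 and 27.9 and 32.5 in sgNS and rose by 1.08 (SE 0.06, adjusted p = 2.02e-08). The citrate carrier SLC25A1 rose by 0.83 (SE 0.04, adjusted p = 1.21e-08) and ATP citrate lyase, ACLY, by 0.45 (SE 0.03, adjusted p = 2.66e-07). The gene that fell was SLC25A12, a mitochondrial aspartate-glutamate carrier (log2 fold change -0.32, SE 0.05, adjusted p = 0.000273). It had 17.7 and 17.8 TPM in sgDDX6.1, 16.1 and 16.95 in sgDDX6.2 and 21.98 and 21.2 in sgNS. The other aspartate-glutamate carrier of the list, SLC25A13, named after its values were seen, rose (0.18, SE 0.05, adjusted p = 0.00578). SLC25A13 had 46.35 and 44.92 TPM in sgDDX6.1, 45.09 and 41.79 in sgDDX6.2 and 39.42 and 39.03 in sgNS. Lipoylation makes the cofactor of DLAT and DLST, and of 6 tested genes listed for it 3 rose and 1 fell. Those that rose were LIPT2, a lipoyl transferase (0.51, SE 0.08, adjusted p = 0.000225), the ferredoxin gene FDX1L (0.39, SE 0.07, adjusted p = 0.00027) and the ferredoxin reductase FDXR (0.30, SE 0.07, adjusted p = 0.00318). The other ferredoxin gene of the list, FDX1, was not called (0.02, adjusted p = 0.781). The part of either ferredoxin in lipoylation was not tested. FDXR was not called with sgDDX6.1 alone (0.07, adjusted p = 0.463) or with all 4 sgDDX6 libraries as a single group (adjusted p = 0.163). The 1 that fell was LIAS, lipoyl synthase, with 16.03 and 14.6 TPM in sgDDX6.1, 12.4 and 12.8 in sgDDX6.2 and 26.7 and 24.8 in sgNS (log2 fold change -0.84, SE 0.06, adjusted p = 2.53e-07). Of the kinases and phosphatases of pyruvate dehydrogenase, 4 passed the filter on low values. The phosphatase PDP1 was higher (0.37, SE 0.06, adjusted p = 0.000339) and its regulator PDPR lower over both guides (-0.15, SE 0.05, adjusted p = 0.0261). With sgDDX6.1 alone PDPR was not called (-0.08, adjusted p = 0.282). The PDPR call was lost without either sgNS library (adjusted p = 0.129 and 0.0820) and without sgDDX6.2 replicate 1 (adjusted p = 0.0907).

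Of 4 assembly factors of succinate dehydrogenase, only SDHAF3 was called (-0.42, SE 0.08, adjusted p = 0.000508), while the subunits they assemble rose. In propionyl-CoA entry 2 of 6 genes rose and 2 fell. PCCA, a carboxylase subunit, was at 0.57 (SE 0.05, adjusted p = 5.56e-07). The other carboxylase subunit, PCCB, named after its values were seen, was not called (0.04, adjusted p = 0.378). PCCB had means of 149, 148 and 145 TPM in sgDDX6.1, sgDDX6.2 and sgNS. MCEE, the methylmalonyl-CoA epimerase, was at -0.50 (SE 0.08, adjusted p = 0.000111), and MUT, the mutase, at -0.22 (SE 0.05, adjusted p = 0.00278). MMAB, which makes the cobalamin cofactor of the mutase, was at 0.18 (SE 0.07, adjusted p = 0.0455), a call lost without each of the 6 libraries in turn (adjusted p = 0.0511 to 0.197). Of 6 genes of lactate and pyruvate 3 rose and 2 fell. PKM, pyruvate kinase, rose by 0.67 (SE 0.03, adjusted p = 1.89e-09), LDHA, a lactate dehydrogenase subunit, by 0.45 (SE 0.03, adjusted p = 8.1e-08) and the lactate exporter SLC16A3 by 0.68 (SE 0.05, adjusted p = 2.54e-07). LDHB, the other lactate dehydrogenase subunit, had 1609 and 1603 TPM in sgDDX6.1, 1536 and 1497 in sgDDX6.2 and 1794 and 1760.0 in sgNS and fell by 0.19 (SE 0.03, adjusted p = 7.87e-05). The monocarboxylate transporter SLC16A1, named after its values were seen, fell by 0.32 (SE 0.05, adjusted p = 0.000166), with overlapping libraries, and was not called with sgDDX6.1 alone (-0.07, adjusted p = 0.294). NNT, the mitochondrial transhydrogenase that makes NADPH, rose by 0.44 (SE 0.04, adjusted p = 1.13e-06).

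**Figure D5:**
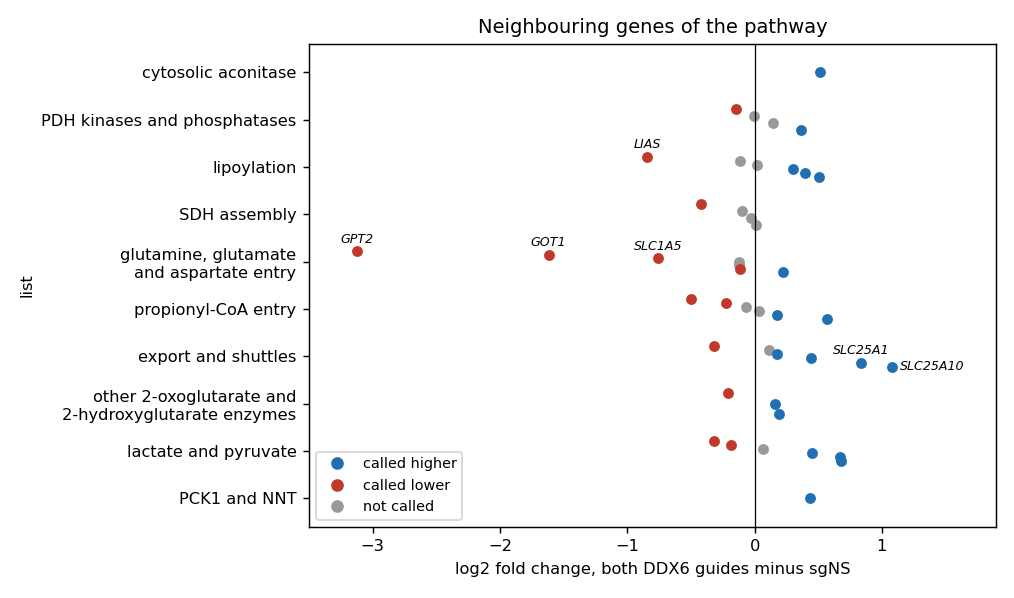
Log2 fold change, both guides minus sgNS (horizontal axis), of 44 tested genes in 10 lists of neighbouring genes (vertical axis), 1 point per gene, coloured by call. GPT2 at -3.12 and GOT1 at -1.62 are the lowest and SLC25A10 at 1.08 the highest.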

How the data were processed

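Expression was measured by sequencing poly(A)+ RNA from 6 Mono-mac-6 libraries, grouped by the labels. The authors deposited TPM for each gene and library with 2 decimals, made with RSEM 1.2.31 and GRCh38 per the submitters' processing notes. Annotation and strand use are not given in the sources used, and RNA extraction is named as QIAzol in the design text and as TRIZOL in the labels. TPM hold no depth, so no counting interval is given. From them log2(TPM + 1) was computed for the 11151 genes with at least 1 TPM in 2 or more libraries. limma 3.58.1 (R 4.3.3) fitted 3 group means to the 6 libraries, with a variance trend and 3 residual degrees of freedom. The test was moderated, drawing the variance of each gene toward that trend over all genes tested. Intervals and p-values therefore rest on more than 3 degrees of freedom per gene. All tests are two-sided. Within a contrast, p-values were adjusted over all genes by Benjamini-Hochberg, with a threshold of 0.05, and intervals are at 95%. Each guide and the mean of both were set against sgNS, and sgDDX6.2 against sgDDX6.1. The fitting code was tested on simulated data.

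The 32 genes and the neighbour lists were chosen with earlier results of these data known, so lists are described by counts and medians and carry no test. All 32 genes are named, and from each neighbour list up to 4 tested genes with the lowest adjusted p qualified, of which called ones are described. Some genes of these lists are not reported here. SLC16A1, FDX1, SLC25A13 and PCCB are outside that rule. GLUD2, DCAF6, ACSBG1, LRFN4, MAP3K15, SSR4 and SHLD2 are named only as genes that resemble or overlap others. As alternatives the pseudocount was set to 0.1 or 5, the filter was dropped or raised to 5 TPM, and values were quantile normalized or median centred. The model was also fitted without the trend, robustly, with the replicate number as a block, without each library, on the compared groups alone, and with the 4 sgDDX6 libraries as a single group. TPM without ribosomal protein genes was added after the data were seen. GENCODE release 29 gave gene positions, and the RefSeq promoter table (GRCh38.p14) the sequences.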

Additional observations from a re-analysis of the deposited data

Results flagged for a closer look

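10 results were singled out because the DDX6 guides differed from each other when compared directly (sgDDX6.2 minus sgDDX6.1, limma, adjusted over 11151 genes). Of all genes tested 35.6% were called in this comparison, so the share called was near that of all genes. Only IDH2 kept its call in every alternative run.
IDH2, mitochondrial isocitrate dehydrogenase, was higher with sgDDX6.2 by 0.30 (adjusted p = 0.000422), with both guides above sgNS. The pyruvate carrier gene MPC2 differed by 0.22 (adjusted p = 0.00529), the IDH3 subunit IDH3G by 0.18 (adjusted p = 0.012) and cytosolic malate dehydrogenase MDH1 by 0.12 (adjusted p = 0.022). Lower with sgDDX6.2 were DLAT of pyruvate dehydrogenase at -0.21 (adjusted p = 0.0123), the malic enzyme ME2 at -0.18 (adjusted p = 0.0113) and the succinate dehydrogenase subunit SDHB at -0.16 (adjusted p = 0.0197). Citrate synthase CS was at -0.14 (adjusted p = 0.0138), mitochondrial malate dehydrogenase MDH2 at -0.13 (adjusted p = 0.0169) and fumarase FH at -0.12 (adjusted p = 0.0314). DLAT, SDHB and FH were called with sgDDX6.1 (0.30, 0.22 and 0.12) and not with sgDDX6.2 (0.08, 0.06 and 0.000339). ME2 and IDH3G were called with sgDDX6.2 (-0.22 and 0.28) and not with sgDDX6.1 (-0.04 and 0.10). Rescaled without the ribosomal protein genes, ME2 was called with sgDDX6.1 too, while FH was called with sgDDX6.2 and not with sgDDX6.1.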

How the results depend on the processing

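For both guides minus sgNS, 20 genes higher and 8 lower became 13 and 9 when TPM were rescaled without ribosomal protein genes, an alternative chosen after the data were seen. Over all genes 2862 were then higher and 4796 lower, against 3764 and 3670. DLAT, IDH3G, MPC1, SDHB, SDHD, SUCLA2 and SUCLG2 lost their calls and PDHX gained one. With sgDDX6.2 alone CS, SUCLA2 and SUCLG2 lost theirs, and FH and PDHX gained one. With sgDDX6.1 alone FH, MPC1, SDHD, SUCLA2 and SUCLG2 lost theirs, and D2HGDH, ME2 and PDHX gained one. Under the same rescaling some values that had not been called turned below 0. Over both guides these were SUCLG1 (-0.000319) and FH (-0.031). With sgDDX6.2 they included DLAT (-0.013), SDHB (-0.040) and FH (-0.097, adjusted p = 0.0365). For single guides, the direction was examined only for PCK2 and the genes that differed between the guides. FH with sgDDX6.2, at 0.000339, was also -0.057 after quantile normalization and ranged from -0.023 to 0.024 with each library left out in turn. The rescaling divides all TPM of a library by the same number, so it moved the fold changes of all genes together. The median went from 0.18 to 0.09 for the 31 genes and from 0.00 to -0.09 for all genes tested. Why the ribosomal share differed between groups, and the cause of the other shifts, was not tested.

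With each library left out in turn, and a lone library assumed to vary like the other groups, 15 to 20 genes were higher and 7 to 8 lower over both guides. For sgDDX6.2 minus sgDDX6.1 these counts ranged from 2 to 4 higher and from 0 to 6 lower, and without the variance trend they were 2 and 2, against 4 and 6. With the 4 sgDDX6 libraries as a single group 15 were higher and 6 lower, with D2HGDH, DLAT, IDH3G, ME2, MPC1, SDHB and SDHD no longer called. Deviations from the group means correlated at 0.04, 0.26 and 0.10 between groups, which does not settle whether the replicate numbers pair the libraries. With the replicate block, 21 genes were higher and 8 lower over both guides, 22 and 7 with sgDDX6.1, 19 and 8 with sgDDX6.2, and 5 and 7 between guides. PCK2, ME1, PC, OGDH, SDHA, MDH1 and IDH2 kept direction and call over both guides in every alternative run. So did MPC2, PDHA1, PDHB, DLD, CS, IDH1, IDH3A, IDH3B, DLST, SDHC, MDH2 and GLUD1. SUCLG1, not called as reported, was called with a TPM filter of 5, a pseudocount of 5, median centring and the replicate block. With 2 libraries per group and no depth in TPM, small differences such as those of FH and PDHX could not be resolved.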
